A study of Mus musculus with 18 samples.

Results

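Genes of the Hippo-YAP pathway, 9 in all, were followed in mouse liver: the coactivators Yap1 and Wwtr1, their DNA-binding partner Tead1, the kinases Lats1 and Lats2, and the target genes Amotl2, Ctgf, Cyr61 and Ankrd1. Each was taken by its gene symbol in the deposited annotation, and all 9 were found among 36230 single symbols, each with 1 transcript cluster, the array's unit for a gene. Liver RNA of 18 adult male mice was hybridised to the Affymetrix MTA 1.0 array, 1 array for each mouse. Livers labelled HPNWT and livers labelled EGFP (enhanced green fluorescent protein, the control) were collected at day 1, day 2 and day 4, with 3 livers in each of the 6 groups. All 18 mice received an adeno-associated virus (AAV), and the series describes overexpression in the liver of hepsin, the cell-surface serine protease that Hpn encodes. The labels do not spell out HPNWT and leave the start of the day count unstated. Strain, age in weeks, promoter and virus dose are not named in the sources used here.

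In the Hippo pathway the kinases MST1 and MST2 (genes Stk4 and Stk3) with the adaptor SAV1 activate LATS1 and LATS2, which act with MOB1 and phosphorylate YAP and its paralogue TAZ, the product of Wwtr1. Phosphorylated YAP and TAZ are held in the cytoplasm by 14-3-3 proteins or degraded. Unphosphorylated YAP and TAZ enter the nucleus, bind TEAD transcription factors and activate genes such as Ctgf, Cyr61, Ankrd1 and Amotl2. In liver the pathway is known for its control of organ size and regeneration, and YAP is more abundant in bile duct cells than in hepatocytes. An array of RNA does not show phosphorylation or the place of a protein in the cell.

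Promoter windows of the members are shown first because TEAD factors act at the element CATTCC, a textbook feature of the target genes. The members were not chosen by sequence. Cyr61, Ankrd1, Amotl2 and Lats2 are known targets of YAP and TEAD factors, so a match in them is not independent of the choice. The windows are from RefSeq on GRCm38.p6 and run from 250 bases before to 50 bases after the transcription start. They were given for 7 of the 9 members; Ctgf (Ccn2 in RefSeq) and Tead1 had none in the table. The 5 windows shown are those of the 3 genes that passed the test over the 3 days (Yap1, Wwtr1 and Ankrd1) and of 2 targets that did not (Cyr61, Ccn1 in RefSeq, and Amotl2). All are written 5′ to 3′ on the gene's strand, and capitals mark CATTCC or its reverse complement GGAATG. The Yap1 window is chr9:8004547-8004846 on the minus strand and the Wwtr1 window chr3:57575861-57576160 on the minus strand. The Ankrd1 window is chr19:36119795-36120094 and the Cyr61 window chr3:145649936-145650235, both on the minus strand. The Amotl2 window is chr9:102717554-102717853 on the plus strand.
Yap1: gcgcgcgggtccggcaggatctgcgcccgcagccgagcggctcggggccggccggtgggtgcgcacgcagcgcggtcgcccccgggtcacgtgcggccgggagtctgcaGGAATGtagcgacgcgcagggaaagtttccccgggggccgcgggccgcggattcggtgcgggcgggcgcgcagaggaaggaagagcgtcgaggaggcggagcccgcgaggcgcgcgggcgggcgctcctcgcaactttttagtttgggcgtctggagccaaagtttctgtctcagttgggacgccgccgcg
Wwtr1: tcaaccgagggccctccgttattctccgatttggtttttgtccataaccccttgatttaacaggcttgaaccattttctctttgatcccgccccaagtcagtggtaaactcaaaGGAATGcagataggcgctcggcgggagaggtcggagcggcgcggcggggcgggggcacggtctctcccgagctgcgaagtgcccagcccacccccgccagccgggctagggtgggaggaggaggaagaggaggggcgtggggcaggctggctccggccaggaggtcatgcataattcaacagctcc
Ankrd1: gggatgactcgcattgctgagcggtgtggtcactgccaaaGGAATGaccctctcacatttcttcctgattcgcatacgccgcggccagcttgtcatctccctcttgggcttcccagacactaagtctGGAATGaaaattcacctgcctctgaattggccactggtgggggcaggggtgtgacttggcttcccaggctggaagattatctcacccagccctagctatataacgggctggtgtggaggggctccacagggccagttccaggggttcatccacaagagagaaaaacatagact
Cyr61: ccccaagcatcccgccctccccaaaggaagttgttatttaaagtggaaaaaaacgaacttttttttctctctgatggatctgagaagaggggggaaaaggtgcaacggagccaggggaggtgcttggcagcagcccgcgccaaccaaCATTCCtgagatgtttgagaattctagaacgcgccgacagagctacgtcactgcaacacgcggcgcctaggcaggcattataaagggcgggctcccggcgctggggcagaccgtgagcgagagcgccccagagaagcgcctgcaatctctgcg
Amotl2: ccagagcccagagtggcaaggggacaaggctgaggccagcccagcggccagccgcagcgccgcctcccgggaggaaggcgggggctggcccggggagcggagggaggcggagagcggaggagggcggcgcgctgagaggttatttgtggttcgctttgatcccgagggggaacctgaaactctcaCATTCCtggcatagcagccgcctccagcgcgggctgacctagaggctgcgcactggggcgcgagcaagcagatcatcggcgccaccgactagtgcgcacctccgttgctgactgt

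CATTCC, searched on both strands, was found in 6 of the 7 members with a window. Of all 32851 promoter windows of this length, 14.7% held it. That share counts single windows, while a member was counted with a match in any of its windows (Wwtr1 and Lats2 have 2 each). Ankrd1 had 2 matches, beginning 210 and 123 bases before the start, and the Cyr61 match began 103 bases and the Amotl2 match 65 bases before it. The Yap1 match began 141 bases and that of the Wwtr1 window 136 bases before the start. Lats2 had a match in 1 of its 2 windows, 5 bases after the start, and Lats1 had none. The AP-1 site TGANTCA was found in none of the 7 members' windows and in 7.81% of all windows. The CArG box bound by serum response factor was likewise found in none of the 7 and in 1.63% of all. No match overlapped another. A match describes the letters and does not show binding.

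**Figure D1:**
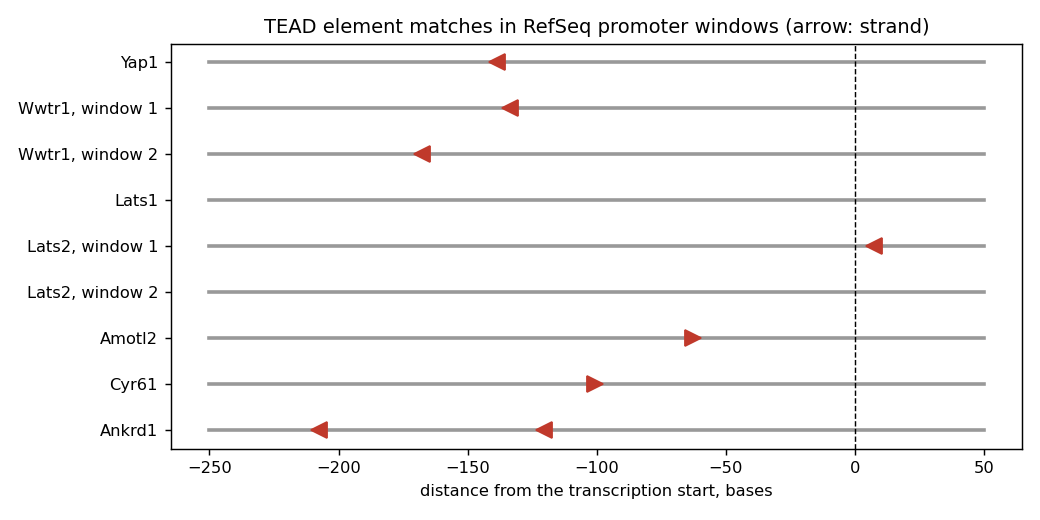
Position of CATTCC on the plus (right arrow) or minus (left arrow) strand in the RefSeq promoter windows of 7 members, in bases from the transcription start (dashed line). Ankrd1 has 2 matches, and Lats1 and the second Lats2 window have none.

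Arrays correlated at 0.982 to 0.998. HPNWT day 4 replicate 3 and HPNWT day 1 replicate 1 stood apart from the other arrays on principal components. The median of the 5222 negative-control probe sets was 2.93 to 3.14 in HPNWT and 3.09 to 3.27 in EGFP arrays at day 1, on the log2 scale. It was 2.99 to 3.09 in HPNWT and 3.27 to 3.55 in EGFP arrays at day 2, and 2.89 to 3.20 in HPNWT and 3.06 to 3.25 in EGFP arrays at day 4. The 95th percentile of these probe sets averaged 6.16 log2, and signals under it are called dim here and given no fold change. Hpn, the gene named for overexpression, was not detectably higher in livers labelled HPNWT: its log2 differences were −0.062, −0.081 and 0.11 at days 1, 2 and 4 (limma adjusted p = 0.894, 0.731 and 0.809). Whether the probe set reads the transgene was not tested. Hepatocyte markers stood above 6.16 log2 for 14 of 14 measured genes. In whole tissue a lower or higher signal cannot separate fewer or more cells of a type from less or more RNA per cell.

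Differences are HPNWT minus EGFP on the log2 scale of the deposited robust multi-array average (RMA) values, and a gene was called changed when the limma p, adjusted over all 40161 clusters with a symbol, was under 0.05. At day 1, 1 of the 9 members was called, Yap1, and it was higher; 4.59% of all clusters were called and 2.97% were called higher. At day 2 limma called 0 of 9, against 5.67% of all clusters, and 0 of 9 had an unadjusted p under 0.05, against 19.9% of all clusters. At day 4, 1 of 9 was called, Wwtr1, and it was higher, against 2.21% of all clusters and 1.54% called higher. For the mean of the 3 days, 3 of 9 were called, all higher (Yap1, Wwtr1 and Ankrd1), and none lower; 15.2% of all clusters were called and 7.85% were called higher. Without overlap between the arms, 3 members were higher and none lower at day 1, beside 10% and 8.21% of all clusters. At day 2, 2 were higher and 2 lower, beside 21.2% and 13.1%, and at day 4, 3 were higher and none lower, beside 9.91% and 5.7%. The median difference of the 9 members was 0.18, −0.058 and 0.086 log2 at days 1, 2 and 4, beside 0.0066, 0.048 and 0.0068 log2 over all clusters.

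Yap1 (cluster TC0900001724.mm.1) encodes YAP, the coactivator that LATS kinases restrain. Its log2 signal at day 1 was 7.54, 7.18 and 7.08 in HPNWT livers, against 6.93, 6.90 and 6.80 in EGFP livers. At day 2 it was 7.08, 7.12 and 7.08 in HPNWT livers, against 6.98, 6.95 and 6.95 in EGFP livers. At day 4 it was 7.08, 7.11 and 7.20 in HPNWT livers, against 7.01, 6.86 and 6.86 in EGFP livers. At each day all HPNWT livers were higher than all EGFP livers, and the lowest of the 9 HPNWT values (7.08) exceeded the highest of the 9 EGFP values (7.01). Day 1 had the widest spread among HPNWT livers, with replicate 1 the highest. Non-overlapping, higher values at all 3 days were seen in 880 of the 40161 clusters (2.19%).

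The Yap1 difference was 0.39 ± 0.092 log2 at day 1 (SE, 1.31-fold, n = 3 each, limma adjusted p = 0.0214), 0.13 at day 2 (adjusted p = 0.449) and 0.22 at day 4 (adjusted p = 0.326). The mean over the 3 days was 0.25 ± 0.053 log2 (1.19-fold, 95% interval 0.14 to 0.36, limma adjusted p = 0.00425). An exact permutation test that relabelled arms within days, 2-sided over 8000 relabellings, gave p = 0.00025, the smallest it can give. The day 1 call was lost without HPNWT day 1 replicate 1, one of the arrays that stood apart (0.26 log2, adjusted p = 0.0731), without EGFP day 1 replicate 2 (adjusted p = 0.0620) and without EGFP day 1 replicate 3 (adjusted p = 0.0900), while the mean over days stayed called without any 1 array. In a fit with each array's negative-control median as a term, the mean was 0.24 ± 0.084 log2 (SE) and no longer called (limma adjusted p = 0.138). That median did not overlap between the arms at day 2, so this fit cannot fully separate it from the arm. In the authors' deposited table Yap1 had a fold of 1.43 at day 1 with a false discovery rate of 0.0151.

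Wwtr1 (TC0300002025.mm.1) encodes TAZ, which shares its partners and kinases with YAP. Its log2 signal at day 1 was 6.57, 6.45 and 6.28 in HPNWT livers, against 6.24, 6.02 and 6.09 in EGFP livers. At day 2 it was 6.27, 6.24 and 6.17 in HPNWT livers, against 6.15, 5.94 and 5.95 in EGFP livers. At day 4 it was 6.46, 6.41 and 6.74 in HPNWT livers, against 6.16, 5.90 and 6.21 in EGFP livers. The HPNWT livers were above all EGFP livers of the same day at each day, and 8 of 9 were above all 9 EGFP livers. The EGFP means were dim at all 3 days (12 of 18 arrays of this gene exceeded 6.16 log2), so a difference is given and no fold.

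The Wwtr1 difference was 0.32 log2 at day 1 (adjusted p = 0.116), 0.22 at day 2 (adjusted p = 0.279) and 0.44 ± 0.11 at day 4 (SE, n = 3 each, limma adjusted p = 0.0393). Averaged over the days it was 0.33 ± 0.062 log2 (95% interval 0.19 to 0.46, limma adjusted p = 0.00167), and the exact permutation test gave p = 0.00025, the smallest possible. The day 4 call was lost in 10 of 18 fits that left out 1 array, among them HPNWT day 4 replicate 3 (0.34 log2, adjusted p = 0.120), EGFP day 4 replicate 1 (adjusted p = 0.0781) and EGFP day 4 replicate 2 (adjusted p = 0.190). In that covariate fit the mean over days was 0.27 ± 0.096 log2 (SE, limma adjusted p = 0.141). The authors' deposited table gave Wwtr1 a false discovery rate of 0.0428 at day 4, and none of the 9 members stands in its lists of changed clusters at any day.

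Tead1 (TC0700001651.mm.1), one of the TEAD factors that carry YAP and TAZ to DNA, was dim in all 18 arrays. Its log2 signal ranged over 5.17 to 5.65 and the arms overlapped at each day, with differences of −0.012, −0.097 and 0.086 log2 at days 1, 2 and 4. The mean difference of −0.0076 log2 had a 95% interval of −0.11 to 0.095 (limma adjusted p = 0.944). HPNWT day 4 replicate 3 was the highest array of the 18 at 5.65, and the sign of the day 4 difference turns without it (−0.015 log2). The other TEAD genes, Tead2, Tead3 and Tead4, had mean differences of 0.013, −0.069 and 0.036 log2 and were not called at any day or over the days. Each of them was dim in all 6 groups, so a lack of change in these genes is not shown.

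Lats1 (TC1000000048.mm.1) and Lats2 (TC1400002868.mm.1) encode the kinases that phosphorylate YAP and TAZ. Lats1 at day 1 was 6.84, 6.72 and 6.78 log2 in HPNWT livers, against 6.44, 6.69 and 6.59 in EGFP livers. The arms did not overlap at day 1, but the difference of 0.21 log2 was not called (limma adjusted p = 0.149), and the differences were −0.052 at day 2 and 0.030 at day 4 with overlapping arms. Its mean difference was 0.062 log2 (95% interval −0.030 to 0.15, limma adjusted p = 0.392). Lats2, also a YAP target that feeds back on YAP, was dim in all 18 arrays, from 5.54 to 5.79 log2. Lats2 at day 2 was 5.59, 5.58 and 5.54 in HPNWT livers, against 5.67, 5.72 and 5.63 in EGFP livers, which did not overlap. The Lats2 differences were −0.075, −0.11 and −0.051 log2, and their mean of −0.077 log2 was not called (limma adjusted p = 0.242; exact permutation p = 0.0365, unadjusted).

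Among the target genes, Amotl2 (TC0900001293.mm.1), which encodes an angiomotin family protein that binds YAP, had lower values in HPNWT livers. Amotl2 at day 2 was 5.92, 5.88 and 5.87 log2 in HPNWT livers, against 5.96, 6.13 and 6.13 in EGFP livers. These did not overlap, while the arms overlapped at day 1 and day 4. Its differences were −0.096, −0.18 and −0.072 log2 at days 1, 2 and 4. The mean of −0.12 ± 0.050 log2 (SE) had a 95% interval of −0.22 to −0.011 and was not called (limma adjusted p = 0.139; exact permutation p = 0.0288, unadjusted). Amotl2 was dim in all 18 arrays.

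Ctgf (TC1000000215.mm.1), which encodes a secreted matricellular growth factor, showed no call at any day. At day 1 it was 6.32, 5.99 and 6.36 log2 in HPNWT livers, against 5.93, 5.95 and 6.25 in EGFP livers. At day 2 it was 6.05, 6.33 and 5.97 in HPNWT livers, against 5.99, 6.30 and 6.24 in EGFP livers. At day 4 it was 6.26, 5.97 and 7.15 in HPNWT livers, against 6.29, 6.26 and 6.29 in EGFP livers. A single array, HPNWT day 4 replicate 3, was high, and the arms overlapped at each day. The differences were 0.18, −0.058 and 0.18 log2, and without that array the day 4 difference was −0.17 log2. The mean of 0.10 log2 had a 95% interval of −0.16 to 0.36 (limma adjusted p = 0.655). The authors' deposited table gave Ctgf a signed fold of −1.09 at day 4, of the other sign.

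Cyr61 (TC0300003087.mm.1), a related matricellular protein gene, had its widest spread in the HPNWT livers of day 1. Its values at day 1 were 6.93, 6.25 and 5.67 log2 in HPNWT livers, against 6.50, 6.73 and 6.04 in EGFP livers. At day 2 they were 6.35, 6.19 and 6.12 in HPNWT livers, against 6.47, 6.0 and 6.81 in EGFP livers. At day 4 they were 6.42, 6.41 and 6.88 in HPNWT livers, against 6.83, 6.97 and 6.83 in EGFP livers. The arms overlapped at each day, with 2 of 3 HPNWT livers below all EGFP livers at day 4. The differences of −0.14, −0.21 and −0.31 log2 were not called, and the mean of −0.22 log2 had a 95% interval of −0.53 to 0.098 (limma adjusted p = 0.382).

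Ankrd1 (TC1900001437.mm.1), which encodes a nuclear ankyrin repeat protein and is a standard readout of YAP, was dim in all 18 arrays, from 3.53 to 4.17 log2. At day 1 it was 3.88, 4.01 and 3.81 in HPNWT livers, against 3.86, 3.75 and 3.53 in EGFP livers. At day 2 it was 3.86, 3.95 and 3.80 in HPNWT livers, against 3.86, 3.68 and 3.71 in EGFP livers. At day 4 it was 4.17, 3.93 and 4.13 in HPNWT livers, against 3.81, 3.68 and 3.73 in EGFP livers. The arms overlapped at day 1 and day 2 and not at day 4. The differences were 0.19, 0.12 and 0.34 log2 (limma adjusted p = 0.344, 0.485 and 0.0733). The mean of 0.22 ± 0.053 log2 (SE) was called (limma adjusted p = 0.0104; exact permutation p = 0.00175), as a difference of signal at a level under that of the negative-control percentile. In the covariate fit it was 0.16 ± 0.082 log2 (SE) and not called (limma adjusted p = 0.302).

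**Figure D2:**
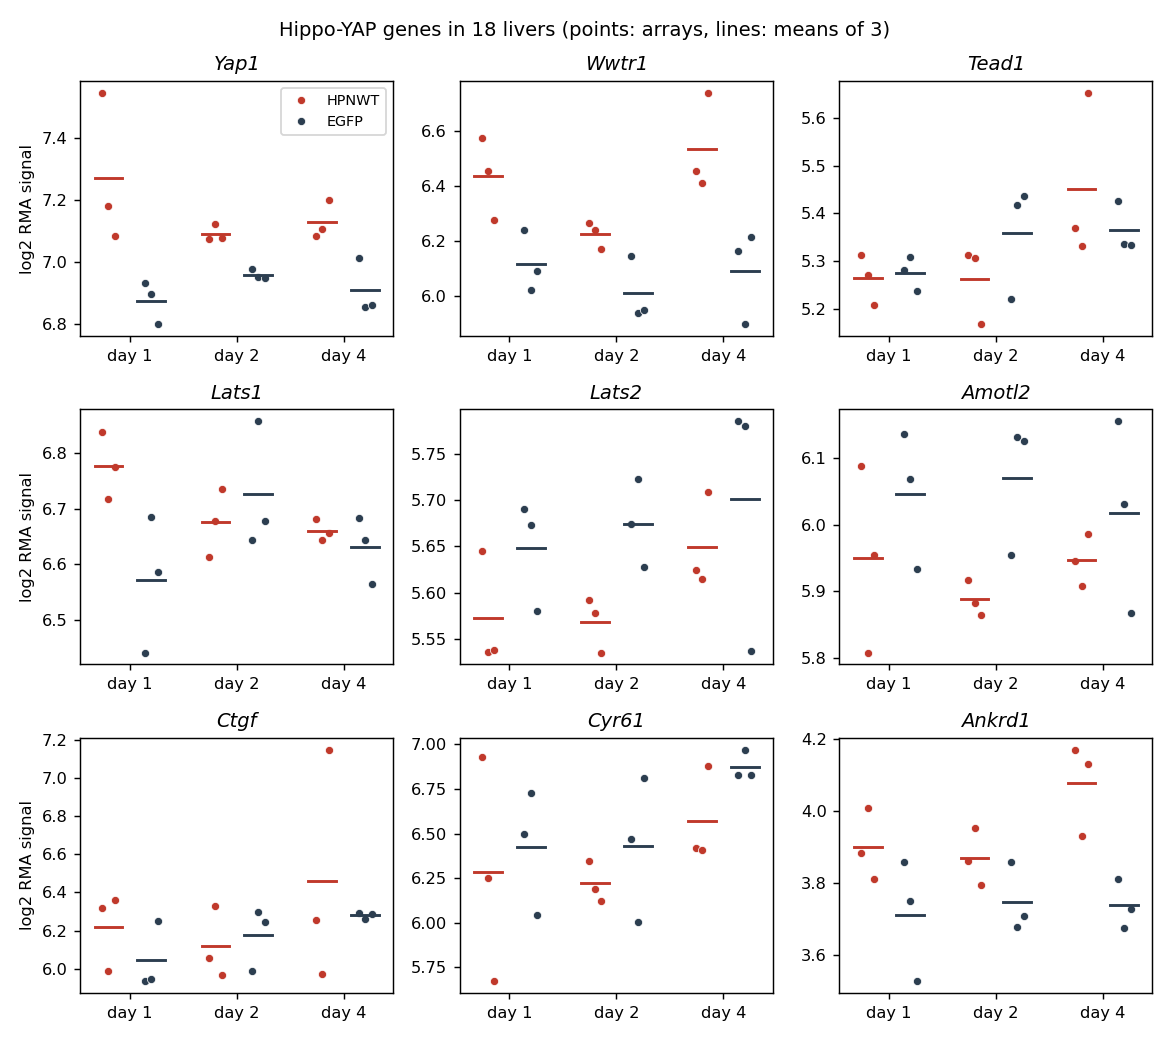
Log2 RMA signal of the 9 members in each of the 18 livers by day (points, HPNWT left and EGFP right at each day, lines are means of 3), with a y axis of its own for each gene. Yap1 HPNWT livers lie above all EGFP livers at each day, and Ctgf at day 4 has 1 high HPNWT array at 7.15.

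**Figure D3:**
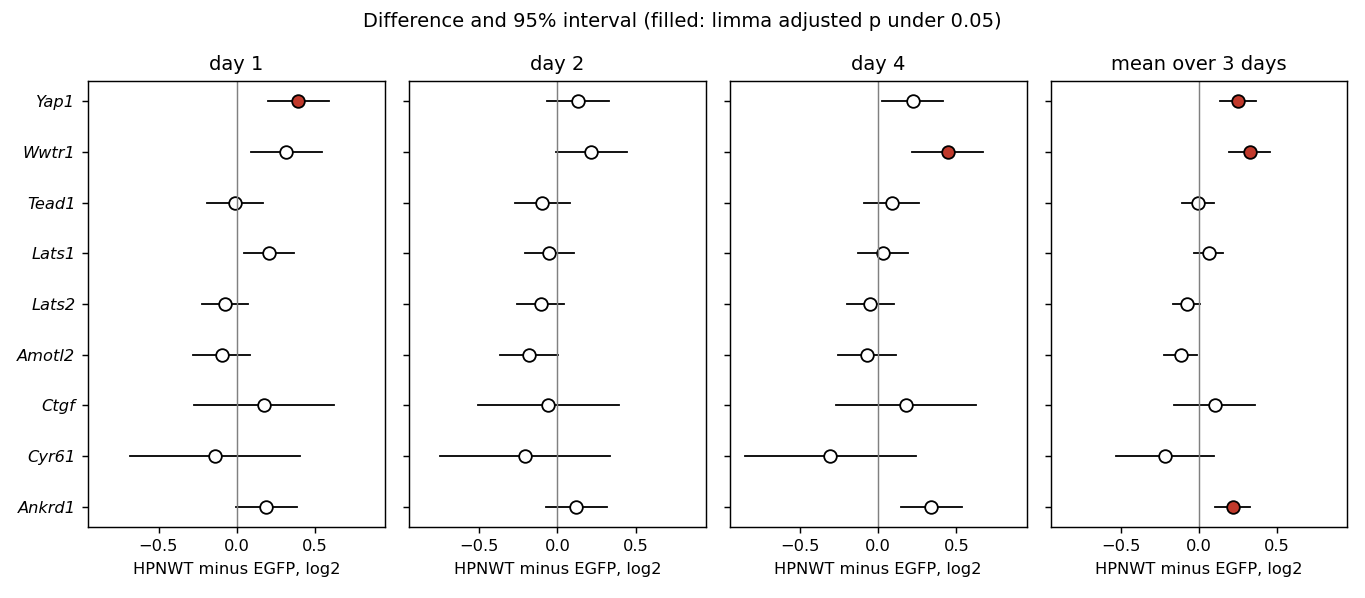
HPNWT minus EGFP log2 difference of each member with its 95% interval at day 1, day 2, day 4 and as the mean of the 3 days. Filled points passed limma's adjusted p under 0.05: Yap1 at day 1, Wwtr1 at day 4, and Yap1, Wwtr1 and Ankrd1 in the mean.

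No member passed the test between days. Of 54 within-arm contrasts between days (6 contrasts, 9 members), limma called 0, with 4 at an unadjusted p under 0.05 and a lowest adjusted p of 0.394. Neighbouring days in the order of a member's levels were therefore not told apart within an arm. Of all clusters, 0.0174% were called in HPNWT livers for day 2 minus day 1, 0.214% for day 4 minus day 2 and 0.871% for day 4 minus day 1, and 0% in EGFP livers for each. The effect of HPNWT against EGFP was compared between days in the same way, and 0 of 9 members were called for each pair of days, with 1, 0 and 0 at an unadjusted p under 0.05. Of all clusters, 0%, 0.00498% and 0.0946% were called for day 2 minus day 1, day 4 minus day 2 and day 4 minus day 1. The lowest adjusted p was 0.855 for day 2 minus day 1, 0.810 for day 4 minus day 2 and 0.985 for day 4 minus day 1. The 3 comparisons with EGFP do not share arrays. At the single days 3 against 3 arrays cannot go below p = 0.1 in an exact permutation test.

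Patterns most like those of the targets were measured over the 18 arrays as the root mean square difference of log2 values, each centred on its own mean. Ankrd1 was nearest to Gcc1 (0.069), with an SD of its own of 0.16. Amotl2 was nearest to Rere (0.065) and Ttll5 (0.068), with an SD of 0.11. Ctgf was nearest to Pcdh17 (0.14) and Prkd2 (0.15), with an SD of 0.27, and Cyr61 to C1galt1c1 (0.24) and Tomm40l (0.27), with an SD of 0.36. These are the closest of 18613 genes compared, members left out.

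Other genes of the pathway were counted from 4 lists holding 105 genes besides the members, of which 102 were measured and 45 had a mean above 6.16 log2. At day 1, 1 was called higher and 1 lower, at day 2, 3 higher and 2 lower, and at day 4, 3 higher and 0 lower, beside the 4.59%, 5.67% and 2.21% of all clusters called. Among all clusters the calls split into 2.97% higher and 1.62% lower at day 1, 2.16% higher and 3.51% lower at day 2, and 1.54% higher and 0.67% lower at day 4. For the mean over days 16 were called higher and 8 lower, beside 7.85% and 7.33% of all clusters called in each direction. The median difference of the 102 genes was 0.018, 0.0087 and 0.044 log2 at days 1, 2 and 4. In the core of the pathway, Stk3, Stk4, Sav1, Mob1a and Nf2 (which encodes the upstream activator Merlin) were not called at any day or over the days. Nf2 was dim in all 6 groups, and Stk3 in all but the HPNWT livers of day 4. Mob1b, the second MOB1 adaptor gene, had a mean difference of −0.20 log2 (limma adjusted p = 0.0125). For Vgll4, which encodes a competitor of YAP for TEAD, it was −0.18 log2 (limma adjusted p = 0.0428), and Vgll4 was dim in all 6 groups. For genes other than the members, the mean over days was not rerun with the covariate or without single arrays.

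Amot, which encodes angiomotin, a junction protein that binds YAP, was called at 2 days. Its cluster has an identifier marked unmapped, and its signal was dim in all 6 groups. At day 2 it was 5.51, 5.97 and 6.08 log2 in HPNWT livers, against 5.19, 4.87 and 5.32 in EGFP livers. At day 4 it was 5.80, 5.73 and 6.0 in HPNWT livers, against 5.23, 5.25 and 5.21 in EGFP livers. The arms did not overlap at either day. Amot differed by 0.73 log2 at day 2 (limma adjusted p = 0.00927) and 0.61 log2 at day 4 (adjusted p = 0.0403), and by 0.62 log2 over the days (limma adjusted p = 1.07e-04). The day 2 call was lost without EGFP day 2 replicate 2 (limma adjusted p = 0.0600), and the day 4 call in 10 of 18 fits without 1 array.

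Inhba, a gene of the target list that encodes the activin A subunit, was called at day 1. It was 6.82, 6.62 and 6.66 log2 in HPNWT livers, against 5.65, 5.68 and 6.03 in EGFP livers. The arms did not overlap. It differed by 0.91 log2 (limma adjusted p = 0.00633) with a dim EGFP mean, and was called in every fit without 1 array. Itch, a ubiquitin ligase gene known to act on LATS1, was 6.95, 7.12 and 6.81 log2 at day 1 in HPNWT livers, against 7.31, 7.38 and 7.46 in EGFP livers. It was lower by −0.42 log2 (limma adjusted p = 0.0138), a call lost without HPNWT day 1 replicate 1 (adjusted p = 0.0512) or EGFP day 1 replicate 3 (adjusted p = 0.0638).

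At day 2 Sox9, which encodes a transcription factor of bile duct and progenitor cells, was 7.12, 7.47 and 7.41 log2 in HPNWT livers, against 6.40, 5.99 and 6.81 in EGFP livers. It differed by 0.93 log2 with no overlap (limma adjusted p = 0.0214), and the call was lost when HPNWT day 2 replicate 2 or 3 was left out, or EGFP day 2 replicate 1 or 2 (limma adjusted p from 0.0542 to 0.124). Gadd45b, a stress response gene, was 7.04, 6.79 and 6.14 log2 in HPNWT livers, against 5.76, 5.44 and 6.10 in EGFP livers. It differed by 0.89 log2 (limma adjusted p = 0.0347) with a dim EGFP mean, and was not called when HPNWT day 2 replicate 1 or 2 was left out, or EGFP day 2 replicate 1 or 2 (limma adjusted p from 0.0856 to 0.171). The kinase genes Taok1 and Taok2, whose products can phosphorylate upstream Hippo kinases, were lower: Taok1 was 6.99, 7.03 and 7.10 log2 in HPNWT livers, against 7.33, 7.41 and 7.29 in EGFP livers. Taok1 differed by −0.31 log2 (limma adjusted p = 0.0210) and Taok2 by −0.44 log2 (limma adjusted p = 0.0289). Taok1 was not called when HPNWT day 2 replicate 1 or 2 was left out, or EGFP day 2 replicate 2, and Taok2 without any 1 HPNWT day 2 array or EGFP day 2 replicate 2 or 3 (limma adjusted p up to 0.125).

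At day 4 Rassf1, which encodes a scaffold of MST kinases, differed by 0.28 log2 (limma adjusted p = 0.0407) at a dim level, and Ywhah, which encodes a 14-3-3 protein that binds phosphorylated YAP, by 0.25 log2 (limma adjusted p = 0.0466). Neither pair of groups overlapped. Both calls were lost in 13 of 18 fits without 1 array. Of the 10 pathway calls at single days, the 5 at day 2 and the Amot and Ywhah calls at day 4 were lost once the negative-control median was added as a covariate. With it the day 2 differences were −0.14 log2 for Taok1, −0.16 for Taok2, 0.50 for Amot, 0.62 for Sox9 and 0.73 for Gadd45b (limma adjusted p from 0.559 to 0.841), so those of Taok1, Taok2 and Sox9 were smaller by over 1.5 times. The SE of each of these 5 was larger with the covariate, which did not overlap between the arms at day 2. The day 4 differences were 0.53 log2 for Amot (limma adjusted p = 0.103) and 0.25 for Ywhah (limma adjusted p = 0.0742), close to those without it. The HPNWT minus EGFP differences of these 9 genes were also compared between days, and none was called (lowest limma adjusted p = 0.399, for Itch at day 4 minus day 1).

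**Figure D4:**
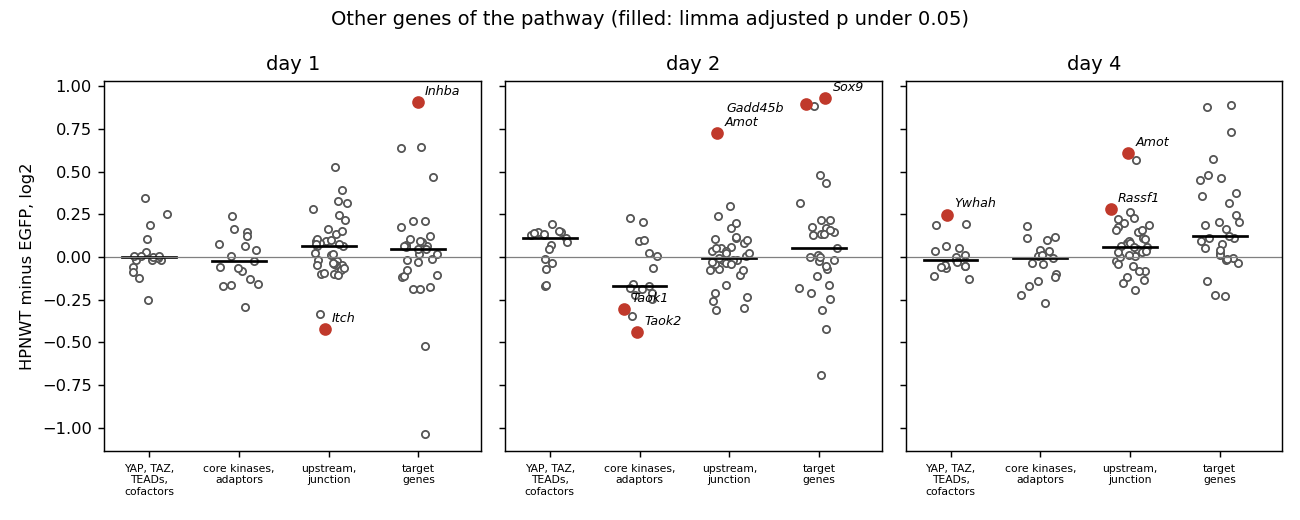
HPNWT minus EGFP log2 difference of the measured pathway genes other than the members (each point a gene, grouped by list, each drawn once, bars are medians of the points). Filled points passed limma's adjusted p under 0.05: Inhba and Itch at day 1, 5 genes at day 2, and Amot, Rassf1 and Ywhah at day 4.

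**Figure D5:**
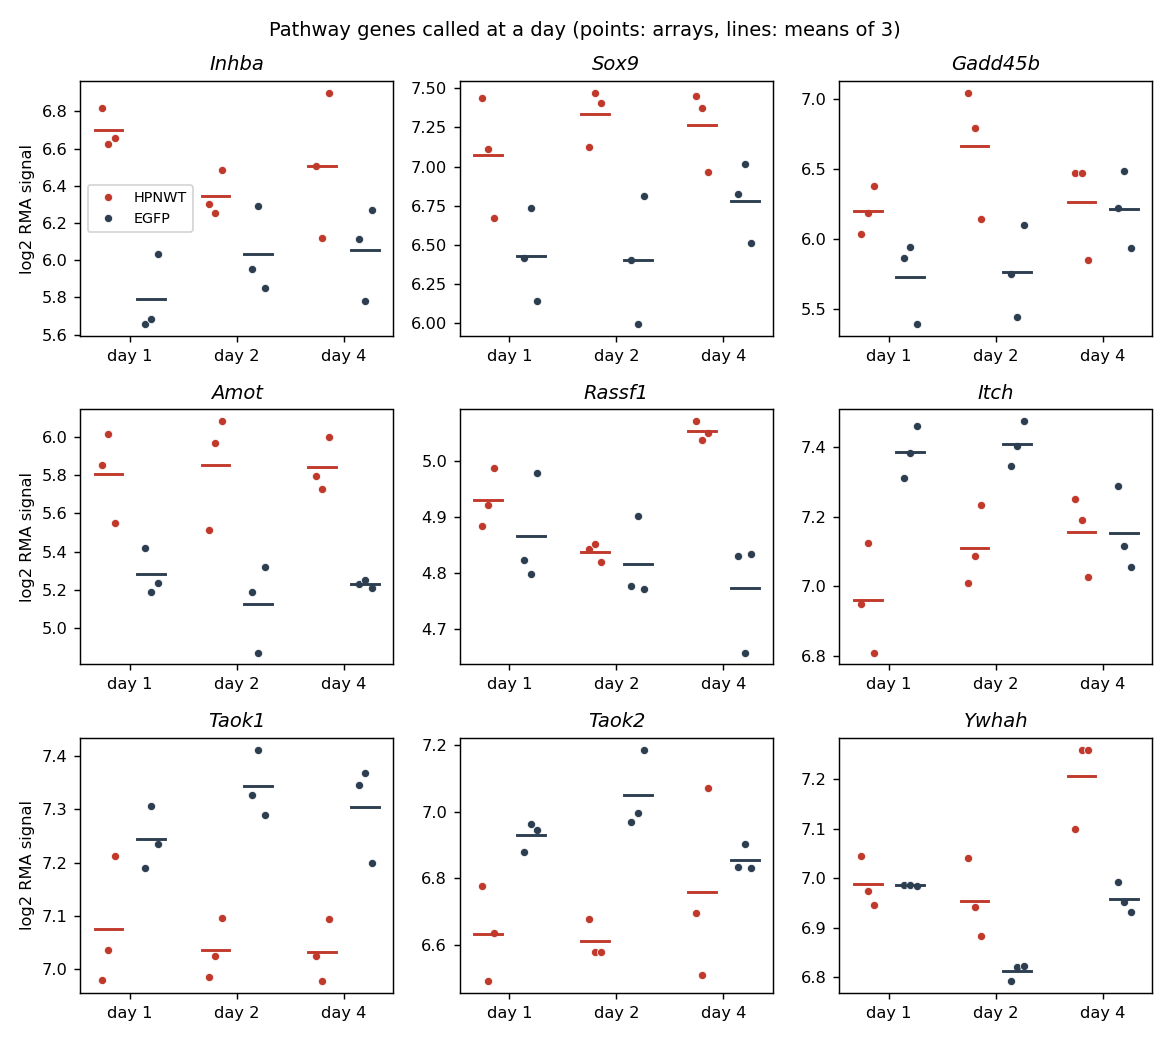
Log2 RMA signal in each liver (points, HPNWT left and EGFP right at each day, lines are means of 3) of the 9 pathway genes called at 1 or more days. Inhba at day 1 is 6.62 to 6.82 in HPNWT livers, against 5.65 to 6.03 in EGFP livers.

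Markers of other liver cell types were set beside these results. Of all clusters, 4.59%, 5.67% and 2.21% were called at days 1, 2 and 4. For the mean over the days 7.85% of all clusters were called higher and 7.33% lower. Of the 12 cholangiocyte (bile duct) markers, 11, 9 and 12 were higher in HPNWT livers at days 1, 2 and 4, with medians of 0.093, 0.13 and 0.14 log2, and Sox9 alone was called, at day 2. Over the days Sox9 (0.68 log2, limma adjusted p = 0.00151) and Epcam (0.20 log2, limma adjusted p = 0.0308) were called, 9 of the 12 markers were dim, and Krt19 had a mean difference of 0.10 log2 (limma adjusted p = 0.164). The summed linear signal of these markers was 533 to 659 in HPNWT livers, against 495 to 570 in EGFP livers at day 1. It was 615 to 659 in HPNWT livers, against 475 to 631 in EGFP livers at day 2, and 737 to 1002 in HPNWT livers, against 554 to 642 in EGFP livers at day 4. Spp1 had the highest mean of the 12 markers (7.35 log2) and is also on the target list. It differed by 0.88 log2 at day 4 (limma adjusted p = 0.1285), beside 0.11 for Krt19 and 0.039 for Krt7. Of the 11 measured stellate cell and fibroblast markers, 3, 5 and 10 were higher in HPNWT livers at days 1, 2 and 4, with medians of −0.095, −0.0081 and 0.25 log2. Reln alone of them was called at single days: day 2 (0.48 log2, limma adjusted p = 0.0353) and day 4 (0.74 log2, limma adjusted p = 0.00351). Over the days 3 stellate cell and fibroblast markers were called higher and 1 lower. The summed linear signal of this list at day 4 was 1112 to 1698 in HPNWT livers, against 1042 to 1234 in EGFP livers, so the arms overlapped. Kupffer cell and myeloid markers were lower in HPNWT livers for 12, 11 and 8 of 12 genes at days 1, 2 and 4. Their medians were −0.22, −0.26 and −0.064 log2, and over the days 3 of them were called lower. Their summed linear signal at day 1 was 1655 to 1754 in HPNWT livers, against 1773 to 2212 in EGFP livers, without overlap. At day 2 it was 1539 to 1679 in HPNWT livers, against 1661 to 2121 in EGFP livers. At day 4 it was 1461 to 2224 in HPNWT livers, against 1529 to 2016 in EGFP livers. Of the 11 measured sinusoidal endothelial markers, 7, 1 and 6 were higher at days 1, 2 and 4, with medians of 0.010, −0.17 and 0.068 log2, and none was called at a single day. Over the days 1 sinusoidal endothelial marker was called lower and none higher. The summed linear signal of these markers at day 2 was 1508 to 1754 in HPNWT livers, against 1843 to 1968 in EGFP livers. At day 4 it was 1754 to 2681 in HPNWT livers, against 1793 to 1915 in EGFP livers.

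Of the 10 mesothelial markers, 7, 9 and 8 were higher in HPNWT livers at days 1, 2 and 4, with medians of 0.038, 0.16 and 0.12 log2. The keratin genes Krt18 (1.07 log2, limma adjusted p = 0.00269) and Krt8 (0.72 log2, limma adjusted p = 0.00537), which hepatocytes also express, were called at day 1, and they were the 2 mesothelial markers above 6.16 log2. Over the days 2 mesothelial markers were called higher and none lower, beside 7.85% and 7.33% of all clusters. The summed signal of the list at day 1 was 1738 to 2046 in HPNWT livers, against 967 to 1150 in EGFP livers. Krt18 and Krt8 averaged 9.33 and 9.01 log2 over all arrays, and the next highest marker of the list, Upk3b, 5.02 log2. These 2 keratin genes thus make up most of that sum. Muscle markers, among which Ankrd1 is often counted, were all dim, and 6, 12 and 5 of 12 were higher at days 1, 2 and 4, with medians of −0.0044, 0.17 and −0.0040 log2. Their summed signal at day 2 was 326 to 340 in HPNWT livers, against 285 to 307 in EGFP livers. It overlapped between the arms at day 1 and day 4. Actc1 alone of the muscle markers was called at a single day, day 1 (0.33 log2, limma adjusted p = 0.0481). Over the days 1 muscle marker was called higher and none lower. The part of these cell types in the differences of Yap1, Wwtr1, Ankrd1, Sox9 and Amot was not tested.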

How the data were processed

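Each of 18 mouse livers was read on 1 Affymetrix MTA 1.0 array, per the labels. The deposited expression values are log2 RMA values that the authors made in the Transcriptome Analysis Console (TAC), per the labels, and no TAC version is named there. They cover 72688 probe sets, 6732 of which are controls. The authors' deposited comparison tables hold, per the file headers, group averages on a log2 scale, a linear fold change given a minus sign where EGFP is higher (handled as a score), and each cluster's p-value with its false discovery rate. Those averages span a wider scale than the value table, with unknown settings, so they did not enter the limma fits. Only among the alternatives was the authors' fold turned into a log2 difference with its sign kept. It is counted in the totals of those alternatives. Symbols came from these tables: 40161 clusters have one, of which 3590 have several and are not named. No genome build is named for the array annotation.

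The 40161 clusters were fitted in limma 3.58.1 (R 4.3.3, statmod 1.5.0, data.table package version 1.17.8) with lmFit and eBayes, as 6 group means over 18 arrays with no covariate, and p-values were adjusted by Benjamini-Hochberg over all of them. Tests were 2-sided. Each gene was represented by its cluster with the highest mean. The limma p-values set a difference against the spread between animals within groups, and the number of arrays limits the precision. The procedure was tested on simulated arrays with known changes.

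The members and gene lists were chosen with earlier results of these data known. Named beside the members were pathway list genes called at a day, at most 8 a day, and for each of 4 targets the 2 nearest genes, 1 of which is not reported here. The core genes Stk3, Stk4, Sav1, Mob1a, Mob1b, Nf2, Tead2, Tead3, Tead4 and Vgll4 and single cell type markers were named for their roles after their values were seen. Map4k6, Frmd1 and Ccnd1 of the lists were not analysed here. Promoter motifs were matched as exact letters. Same-numbered arrays of HPNWT and EGFP livers were checked for pairing: of 9 pairs, 1 had a correlation of deviations over 0.1 (range −0.25 to 0.111), so the numbers were not used as a block. Alternatives were other scalings, covariates, weights, variance priors, a filter on dim clusters, the authors' table and leaving out each array.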

Additional observations from a re-analysis of the deposited data

How the results depend on the processing

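The mean difference over the days of Yap1, Wwtr1 and Ankrd1 stayed called in each fit without 1 array (0.20 to 0.28, 0.29 to 0.35 and 0.19 to 0.24 log2) and in each other alternative run but the negative-control covariate. Of 422 values under other alternatives, 358 kept their direction and side of the threshold, 41 lost the call, 8 gained one and 15 turned sign; of 828 values without 1 array the numbers were 739, 68, 3 and 18. The count of members called at day 1 was 0 after centring arrays on their median, in the 6 arrays of that day alone and with the covariate, 4 with array quality weights, and 0 to 2 without 1 array. At day 4 it was 0 after centring, in that day's 6 arrays, with the covariate and without both arrays that stand apart (an alternative added after seeing the data), 2 with weights, and 0 to 2 without 1 array. At day 2 it was 0 in each. The share of all clusters called was not computed for these alternatives. Neither the member counts nor the pathway counts that follow can therefore be set beside it. Day 1 pathway calls numbered 7 after quantile normalization, 1 in the 6 arrays, 20 with weights, 5 without dim clusters (9049 clusters tested), 6 without both arrays, 5 in the authors' deposited table, and 1 to 9 without 1 array. Day 2 calls numbered 12 in the 6 arrays, 0 with the covariate, 25 with weights, 14 without both arrays and 0 to 12 without 1 array. Day 4 calls numbered 0 after centring, 1 in the 6 arrays, 1 with the covariate, 7 with weights, 1 with a trended robust prior, 1 in the authors' table and 0 to 5 without 1 array. With the replicate number as a block, which the pairing check did not bear out (2 of 9 arrays correlated best with their own number), the pathway calls were 3, 3 and 0 at days 1, 2 and 4 and the member calls 1, 0 and 1.

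Signs that turned were those of uncalled differences. Tead1 was 0.016 log2 at day 1 after centring, 0.066 at day 1, 0.073 at day 2 and 0.093 over the days with the covariate, −0.014 at day 4 with weights and −0.015 at day 4 without both arrays that stand apart. Without 1 array it ranged over −0.036 to 0.016 at day 1, −0.015 to 0.15 at day 4 and −0.041 to 0.012 over the days. Ctgf was 0.56 at day 2 with the covariate, 0.033 at day 2 and −0.12 at day 4 with weights, −0.17 at day 4 and −0.032 over the days without both arrays, and −0.12 at day 4 in the authors' deposited table. Without 1 array it was −0.16 to 0.017 at day 2, −0.17 to 0.42 at day 4 and −0.016 to 0.18 over the days. Lats1 was 0.11 at day 2 with the covariate, and 0.098 at day 2 and −0.014 at day 4 in the authors' table; without 1 array it was −0.093 to 0.014 at day 2 and −0.0033 to 0.056 at day 4. Cyr61 was −0.46 to 0.17 at day 1 without 1 array. The cause of these changes was not tested. Averaging all clusters of a symbol gave no value of its own because each member has 1 cluster, and Ankrd1, Amotl2, Tead1 and Lats2 have no value without dim clusters. Signal near the negative controls limits these genes.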
